A study of Homo sapiens with 12 samples.

Results

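Metallothioneins and zinc handling genes were followed across 12 RNA-seq libraries of 2 human cell lines, each given low density lipoprotein (LDL) or medium alone. The genes were picked by name, with earlier results of these data known. Of 9 genes named, 8 had a row among the 20117 genes of the table: the metallothioneins MT2A, MT1X, MT1E and MT1F, the metal-sensing transcription factor MTF1, the zinc exporter SLC30A1 and the zinc importers SLC39A8 and SLC39A14. MT1G is not analysed here.

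The 4 groups were THP-1 macrophages with LDL, THP-1 macrophages without LDL, EA.hy926 cells with LDL and EA.hy926 cells without LDL, with 3 libraries each. THP-1 is a monocytic leukaemia line that had been matured with PMA, a phorbol ester, in both of its groups. EA.hy926 is a hybrid line made from umbilical vein endothelial cells and the lung carcinoma line A549. Native LDL was present at 100 µg/mL for 24 h, and all 4 groups were kept without serum during that time. The medium was RPMI-1640 in the THP-1 groups and DMEM in the EA.hy926 groups. Line and medium therefore cannot be told apart wherever the lines are compared. Each line stands for 1 cultured cell population. The labels say no more than biological replicate about how the dishes were kept apart, so each p-value measures only the spread among the libraries at hand.

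Metallothioneins are small cysteine-rich proteins that bind zinc and copper inside the cell and buffer the free metal. MTF1 binds DNA when zinc is plentiful and drives the metallothionein genes and SLC30A1 through short promoter sequences called metal response elements. SLC30A1 carries zinc out across the plasma membrane, whereas SLC39A8 and SLC39A14 carry zinc, and also iron, manganese and cadmium, into the cytosol. In macrophages these genes take part in the handling of metals during infection and inflammation, and SLC39A8 and SLC39A14 are known as genes that inflammatory signals switch on.

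The 4 metallothionein genes lie in the metallothionein cluster of chromosome 16, with other members of the family between them (GRCh38, GENCODE 29, plus strand): MT2A at chr16:56608199-56609497, MT1E at chr16:56625475-56627112, MT1F at chr16:56657694-56660698 and MT1X at chr16:56682424-56684196. Their coding sequences are shown because they explain a limit of the counts: they are nearly the same. Each spans 186 bases in its main transcript in GENCODE 29 and encodes 61 residues, 20 of them cysteine. Capitals mark the cysteine codons, the metal-binding positions of the protein, and each line runs 5′ to 3′ from the start codon to the stop codon.
MT2A: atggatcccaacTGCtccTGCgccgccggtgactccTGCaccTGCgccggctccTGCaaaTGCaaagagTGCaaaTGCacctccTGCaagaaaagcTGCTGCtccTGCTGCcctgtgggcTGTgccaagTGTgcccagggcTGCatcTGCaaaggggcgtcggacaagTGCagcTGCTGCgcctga
MT1X: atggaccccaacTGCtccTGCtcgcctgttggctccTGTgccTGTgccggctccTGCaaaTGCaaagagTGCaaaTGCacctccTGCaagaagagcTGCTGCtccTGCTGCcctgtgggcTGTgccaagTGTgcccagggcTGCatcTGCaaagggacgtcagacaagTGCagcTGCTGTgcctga
MT1E: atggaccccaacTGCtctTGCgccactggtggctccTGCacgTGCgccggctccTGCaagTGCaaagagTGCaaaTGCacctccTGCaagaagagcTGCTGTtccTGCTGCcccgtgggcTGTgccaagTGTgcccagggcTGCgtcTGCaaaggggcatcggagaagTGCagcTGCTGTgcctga
MT1F: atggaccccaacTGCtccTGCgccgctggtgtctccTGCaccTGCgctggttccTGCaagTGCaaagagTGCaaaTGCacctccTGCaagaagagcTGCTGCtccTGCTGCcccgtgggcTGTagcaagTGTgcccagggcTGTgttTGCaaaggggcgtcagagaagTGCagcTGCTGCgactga

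Any pair of these sequences was identical at 88.7% (MT1F and MT1X) to 92.5% (MT1E and MT2A, and likewise MT1X and MT2A) of the 186 bases, and the longest unbroken stretch shared was 63 bases, between MT1X and MT2A. Reads from such stretches could have been dropped or given to a neighbour by the authors' counting, so each single metallothionein count is uncertain in its level. Moves of reads among the 4 genes leave their sum unchanged, whereas dropped reads lower it.

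The promoters of MT2A, MT1X and SLC30A1 are shown because these are textbook targets of MTF1. They were taken from RefSeq (GRCh38.p14), from 250 bases before to 50 bases after the transcription start, and run 5′ to 3′ on the strand of the gene. Capitals mark matches on either strand to the metal response element core, searched as TGCGCNC and TGCACNC.
MT2A promoter: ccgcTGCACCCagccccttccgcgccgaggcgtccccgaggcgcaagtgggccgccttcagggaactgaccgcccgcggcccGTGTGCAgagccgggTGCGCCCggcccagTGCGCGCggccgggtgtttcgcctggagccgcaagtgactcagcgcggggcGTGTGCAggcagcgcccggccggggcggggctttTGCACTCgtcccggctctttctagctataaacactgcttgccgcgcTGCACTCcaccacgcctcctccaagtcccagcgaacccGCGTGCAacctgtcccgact
MT1X promoter: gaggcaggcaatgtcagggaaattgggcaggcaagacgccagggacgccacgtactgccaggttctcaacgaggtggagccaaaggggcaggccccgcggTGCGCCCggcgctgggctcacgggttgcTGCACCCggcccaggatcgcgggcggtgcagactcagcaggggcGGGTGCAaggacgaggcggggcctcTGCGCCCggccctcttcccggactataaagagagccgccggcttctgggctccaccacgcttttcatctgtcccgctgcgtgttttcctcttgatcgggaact
SLC30A1 promoter: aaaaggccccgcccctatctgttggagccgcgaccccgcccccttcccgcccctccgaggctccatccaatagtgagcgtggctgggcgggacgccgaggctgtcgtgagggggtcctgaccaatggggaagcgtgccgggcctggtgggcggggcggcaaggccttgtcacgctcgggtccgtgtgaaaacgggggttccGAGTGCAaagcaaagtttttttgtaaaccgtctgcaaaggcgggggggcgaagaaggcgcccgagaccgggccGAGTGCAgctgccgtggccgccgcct

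MT2A held 8 matches in its window at chr16:56608334-56608633, MT1X held 4 at chr16:56682220-56682519 and SLC30A1 held 2 at chr1:211579112-211579411 on the minus strand. Of 35116 promoter windows of the same length, 19.97% held TGCGCNC, 12.07% held TGCACNC and 29.55% held at least 1 match to either. At least 2 matches were found in 8.60%, at least 4 in 0.601% and 8 or more in 7 windows, or 0.0199%. Windows were available for 5 of the 8 genes. MTF1 had no match, and the 3 start sites listed for SLC39A8 had 0, 0 and 1. A match describes letters in the window and is not a measurement of binding.

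**Figure D1:**
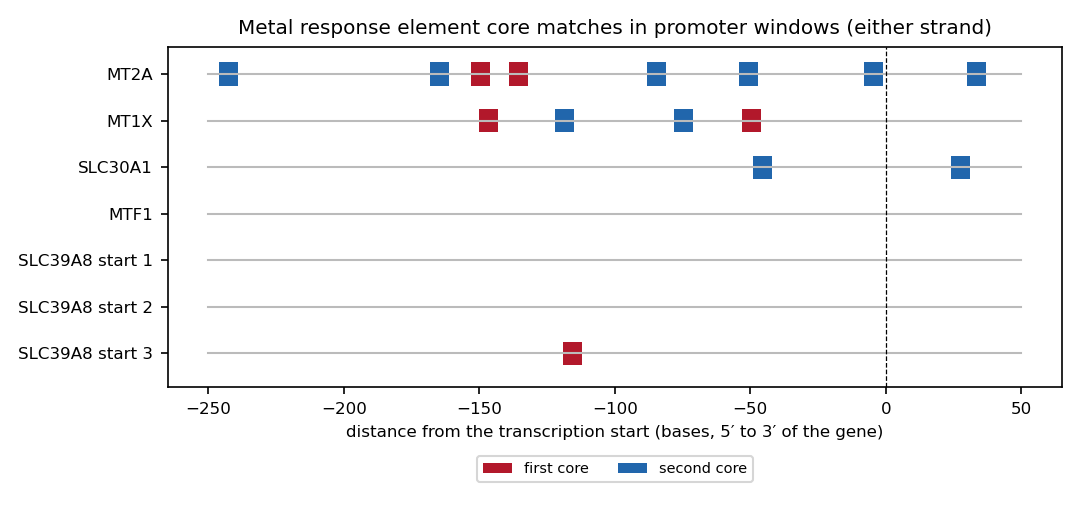
Positions of metal response element core matches, in bases from the RefSeq transcription start, in the promoter windows of 5 genes. Each block is 1 match on either strand, coloured by core (the first core is TGCGCNC, the second TGCACNC). MT2A carries 8 blocks, MT1X 4, SLC30A1 2, MTF1 none and SLC39A8 1 over its 3 listed start sites.

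The remaining genes lie elsewhere. MTF1 is at chr1:37809567-37859620 and SLC30A1 at chr1:211571568-211578742, both on the minus strand. SLC39A8 is at chr4:102251041-102431258 on the minus strand, and SLC39A14 is on chromosome 8.

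Library depth, recovered from the deposited values, was 4.32 to 11.0 M reads, so that 1 read was worth 0.653 to 1.91 normalised counts. RN7SL1, a non-coding RNA needed for protein secretion, made up 1.74% to 3.08% of THP-1 reads and 8.90% to 14.4% of EA.hy926 reads. Most lineage markers with a row went with the labels. Of 14 macrophage markers, 12 averaged at least 10 normalised counts in THP-1 with LDL and 13 in THP-1 without it, against 1 in each EA.hy926 group. CD68, a macrophage marker, was at 0 in all THP-1 libraries. Of 14 endothelial markers 13 had a row, and 11 averaged at least 10 in EA.hy926 with LDL and 12 without it. Of 10 lung epithelial markers only 5 had a row, and 3 reached that level in both EA.hy926 groups. KRT19 was at 0 in all libraries. ELF3 went the other way, at 0 in EA.hy926 and at 34.0 in THP-1 controls. The macrophage markers summed to 38823 to 42677 normalised counts in THP-1 with LDL and 29530 to 31415 in THP-1 without it, with 5 markers called higher and 4 lower with LDL, and their part in the results was not tested. The marker MRC1, at 0.486 with LDL and 28.0 without, entered that test only through the controls, so nothing is read from it. In THP-1, 7 endothelial markers averaged at least 10 normalised counts with LDL and 8 without. The endothelial markers summed to 3578 to 4094 normalised counts in THP-1 with LDL and 3656 to 4020 in THP-1 without it, against 25707 to 27165 in EA.hy926 with LDL and 27278 to 27624 without.

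The first question was whether LDL changed these genes in macrophages. In THP-1 cells with LDL, 7 of the 8 genes rose, and the largest change was a 5.28-fold higher mean of SLC39A14, a zinc and iron importer. MT2A and MT1X were more than 3 times as high, MTF1 and MT1E more than 2 times, and the transporters SLC39A8 and SLC30A1 rose less. MT1F alone did not pass the test. Tests were made with limma across all genes, on the log2 of normalised count plus 1, with Benjamini-Hochberg adjustment and a threshold of 0.05, and on that scale the change of low genes is understated. LDL changed much of the THP-1 transcriptome: 64.5% of the 16167 genes tested were called (35.5% rose and 29.0% fell), against which the 7 of 8 should be read. The median log2 difference was 1.36 over the 8 genes and 0.08 over all genes tested. In bulk RNA, fewer cells of a type and less RNA per cell cannot be told apart.

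MT2A, the most widely expressed human metallothionein, had 169, 141 and 199.8 normalised counts in the THP-1 LDL libraries, against 52.3, 46.4 and 45.1 in the THP-1 control libraries. Each LDL library stood well above each control library. The log2 difference was 1.79 ± 0.16 (SE; limma, adjusted p = 5.6e-07), a 3.54-fold difference of the means. MT1X had 131, 99.9 and 114 normalised counts with LDL, against 33.1, 26.8 and 46.0 in controls. The groups did not overlap, and the log2 difference was 1.70 ± 0.21 (limma, adjusted p = 1.1e-05).

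MT1E had 63.6, 47.3 and 65.6 normalised counts with LDL, against 27.0, 23.5 and 21.6 in controls. Again the groups did not overlap, although these values rest on 36 to 55 reads with LDL and 23 to 36 reads in controls. Its log2 difference was 1.25 ± 0.21 (limma, adjusted p = 2.2e-04). MT1F, the least abundant of the metallothioneins counted, had 35.8, 13.1 and 20.4 normalised counts with LDL and 15.7, 11.8 and 9.40 in controls. The groups overlapped, since LDL replicate 2 lay below control replicate 1, and these values rest on only 10 to 31 reads with LDL and 10 to 18 in controls. Its log2 difference of 0.78 had limits of -0.02 to 1.57 and did not pass (limma, adjusted p = 0.080). Without LDL replicate 2 the difference was 1.11 with an adjusted p of 0.012 in limma, and with all libraries kept it also passed in 1 fit of the 12 libraries (adjusted p = 0.033), so that both that library and the choice of fit change the call.

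Summed over the 4 genes, metallothionein transcripts came to 366 ± 56.8 normalised counts in THP-1 with LDL and 120 ± 10.0 in THP-1 without LDL (SD, n = 3 each). MT2A made up 46.3% ± 3.85 of the sum with LDL and 40.2% ± 2.98 without. The sum was higher in every LDL library than in any control library, and MT2A was the largest single contributor in both groups except in control replicate 3, where MT1X was slightly higher.

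MTF1, the zinc sensor that acts on metallothionein promoters, had 923, 901 and 1019 normalised counts with LDL, against 355, 342 and 319 in controls. These were tight groups far apart, with a log2 difference of 1.48 ± 0.078 (limma, adjusted p = 3.5e-09). SLC30A1, the plasma membrane zinc exporter, had 1259, 1629 and 1363 normalised counts with LDL, against 1042, 1053 and 959 in controls. The groups did not overlap, but LDL replicate 2 stood above the other LDL libraries. The log2 difference was 0.47 ± 0.089 (limma, adjusted p = 4.7e-04), and with quantile scaling it was 0.24 (adjusted p = 0.031).

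SLC39A14 had 8160.2, 8561 and 7028 normalised counts with LDL, against 1429, 1498 and 1571 in controls. The lowest LDL library was more than 4 times the highest control library. The log2 difference was 2.40 ± 0.076 (limma, adjusted p = 2.6e-11), which ranked above 94.9% of all genes tested. SLC39A8, the closest relative of SLC39A14 among the zinc importers, had 445, 503 and 397 normalised counts with LDL, against 294, 280.3 and 278 in controls. All LDL libraries lay above all controls, with a log2 difference of 0.65 ± 0.095 (limma, adjusted p = 5.7e-05). Counted by separation alone, 7 of the 8 genes had LDL and control libraries that did not overlap, and so did 68.9% of all genes tested.

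**Figure D2:**
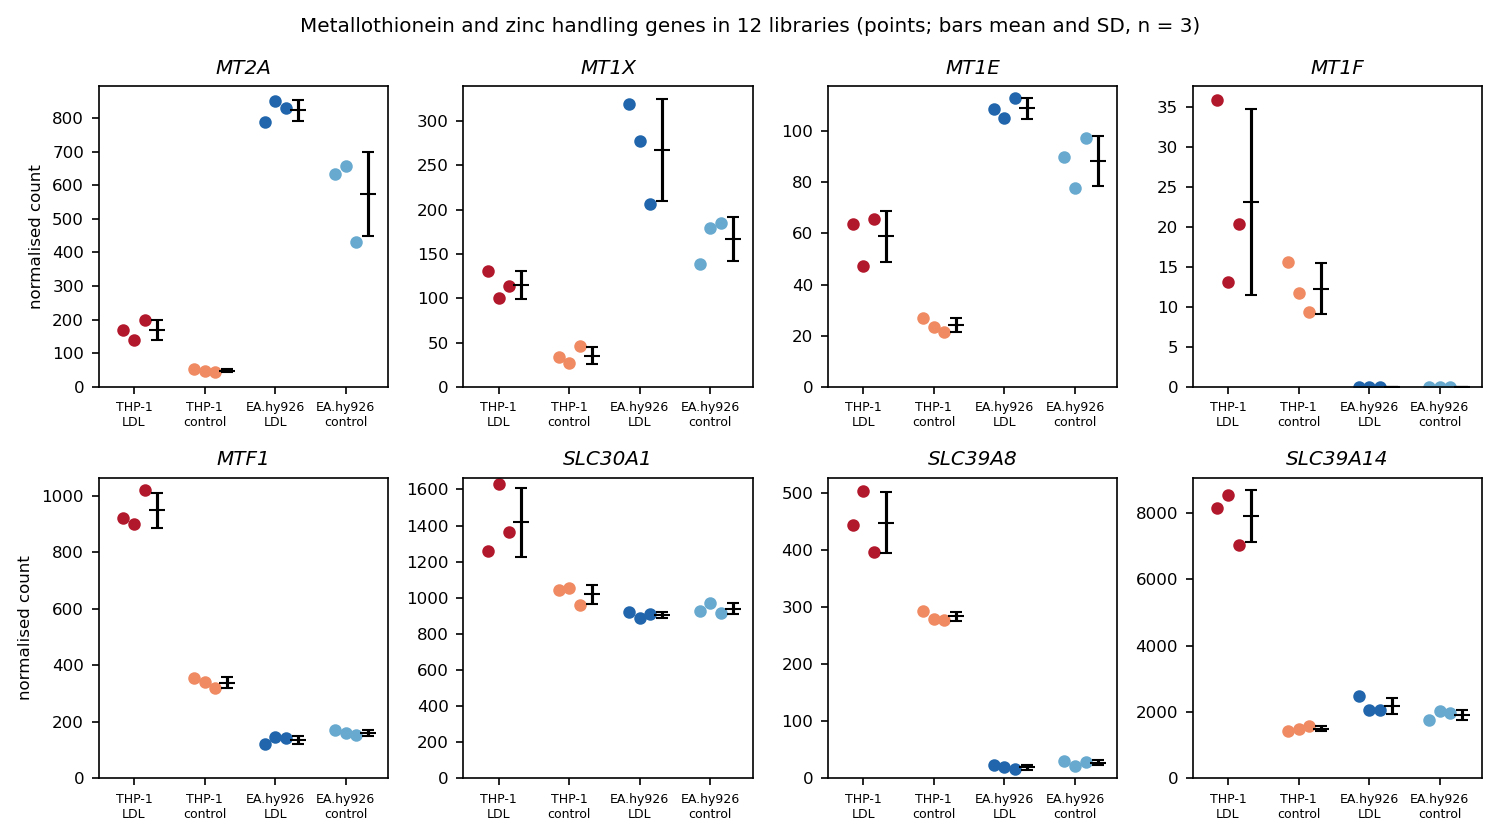
Normalised counts of 8 genes in each of 12 libraries (points), with group mean and SD (bars, n = 3), each panel with its own axis from 0. THP-1 LDL points lie above THP-1 control points in every panel except MT1F, and both EA.hy926 groups are listed at 0 for MT1F.

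The same question in the endothelial line gave no gene past the threshold. In EA.hy926 cells, 0 of the 7 genes tested were called by limma, where 2 had an unadjusted p under 0.05 (MT2A and MT1X), and edgeR called 0 and DESeq2 called 1. Across all 14202 genes tested in this line 2.01% were called, 0.873% higher and 1.13% lower. With a filter at a mean of 50 the split turned over, with 84.4% of the called genes higher in place of 43.5%. MT1F was listed at 0 in all 6 libraries and was not tested.

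MT2A had 787, 849.9 and 829.7 normalised counts in the EA.hy926 LDL libraries, against 635, 656 and 430.2 in the EA.hy926 control libraries. All LDL libraries were above all controls, of which replicate 3 was low. The log2 difference of 0.54 ± 0.15 had limits of 0.22 to 0.86 and did not pass after adjustment (limma, adjusted p = 0.12). MT1X had 319, 277 and 206 normalised counts with LDL, against 139, 179 and 184 in controls. LDL replicate 3 came close to the highest control. The log2 difference of 0.66 ± 0.18 did not pass in limma (adjusted p = 0.13) but did in DESeq2 (adjusted p = 0.034), and it passed in limma without LDL replicate 3 (0.84, adjusted p = 0.015).

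MT1E had 109, 105 and 113 normalised counts with LDL, against 89.8, 77.9 and 97.4 in controls, with a log2 difference of 0.30 and limits of -0.09 to 0.70 (limma, adjusted p = 0.58). The sum of the metallothioneins was 1198 ± 43.8 normalised counts in EA.hy926 with LDL and 829 ± 104 in EA.hy926 without LDL (SD, n = 3 each). MT2A made up 68.7% ± 3.73 of it with LDL and 68.6% ± 7.13 without. All 3 sums with LDL were above all 3 control sums, and no test was made on the sum.

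MTF1 had 121, 147 and 141 normalised counts with LDL, against 172, 159 and 152 in EA.hy926 controls. LDL libraries were the lower ones without overlap, and the log2 difference of -0.24 had limits of -0.59 to 0.10 (limma, adjusted p = 0.62). SLC30A1 had 920.3, 888 and 908 normalised counts with LDL, against 929, 973 and 917 in controls. These groups overlapped and their log2 difference of -0.05 had narrow limits, -0.26 to 0.15 (limma, adjusted p = 0.87). SLC39A14 had 2474, 2051 and 2061 normalised counts with LDL, against 1758, 2044 and 1956 in controls. Separation was by a few counts only, and the log2 difference was 0.19 with limits of -0.05 to 0.43 (limma, adjusted p = 0.55). SLC39A8 was low in this line, with 23.8, 19.1 and 15.7 normalised counts with LDL, against 30.6, 21.9 and 29.0 in controls. It rested on 10 to 30 reads per library, the groups overlapped, and the log2 difference of -0.46 had wide limits of -1.11 to 0.19 (limma, adjusted p = 0.61). LDL and control libraries did not overlap for 5 of the 7 genes, namely MT2A, MT1X, MT1E, SLC39A14 and MTF1, compared with 16.4% of all genes tested.

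**Figure D3:**
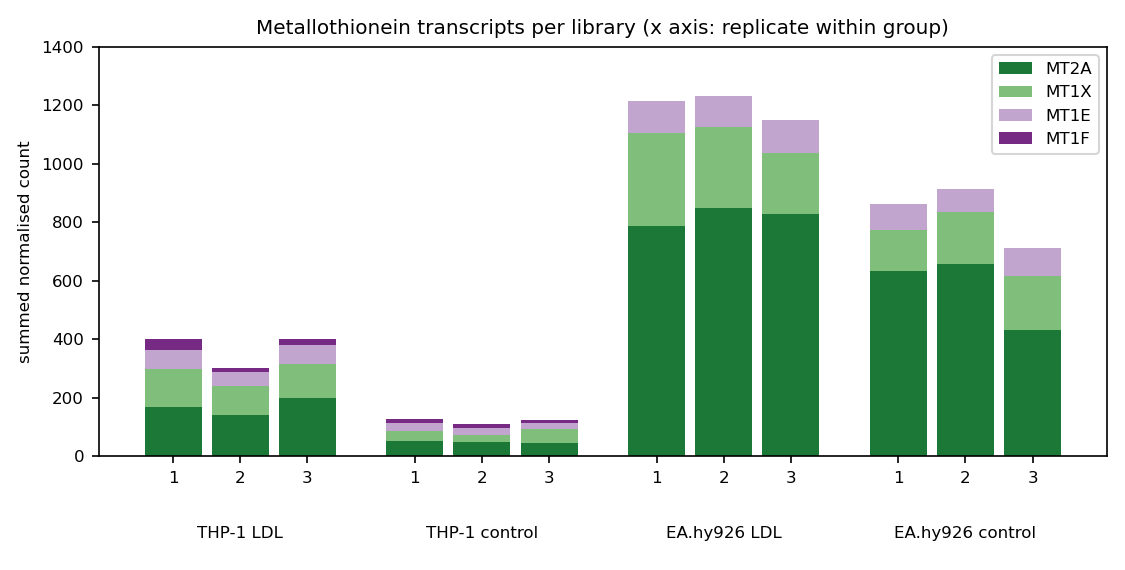
Summed normalised counts of MT2A, MT1X, MT1E and MT1F in each library, stacked by gene, with replicates 1 to 3 of each group on the x axis. THP-1 LDL libraries average 366 and THP-1 controls 120, while EA.hy926 LDL libraries average 1198 and EA.hy926 controls 829.

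The responses of the lines were set against each other with an interaction term in 1 limma fit of all 12 libraries. All 7 genes that could be tested had a larger log2 change in THP-1 than in EA.hy926, whereas 47.1% of the 12534 genes tested differed, 25.2% with a higher and 21.9% with a lower change. This comparison uses the same libraries as the previous comparisons. The difference of the log2 changes was 2.20 ± 0.14 for SLC39A14 (limma, adjusted p = 5.1e-10) and 1.72 ± 0.16 for MTF1 (adjusted p = 7.2e-08). Among the metallothioneins it was 1.25 ± 0.22 for MT2A (adjusted p = 1.6e-04), 1.04 ± 0.29 for MT1X (adjusted p = 0.0072) and 0.94 ± 0.27 for MT1E (adjusted p = 0.0085). It was 1.11 ± 0.26 for SLC39A8 (adjusted p = 0.0019) and 0.52 ± 0.13 for SLC30A1 (adjusted p = 0.0032). Each of the 7 passed under every alternative setting run on it, and SLC39A8 was not tested where the filter was raised to a mean of 50. The lines began from very different metallothionein levels, and whether the starting level plays a part in the response was not tested.

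**Figure D4:**
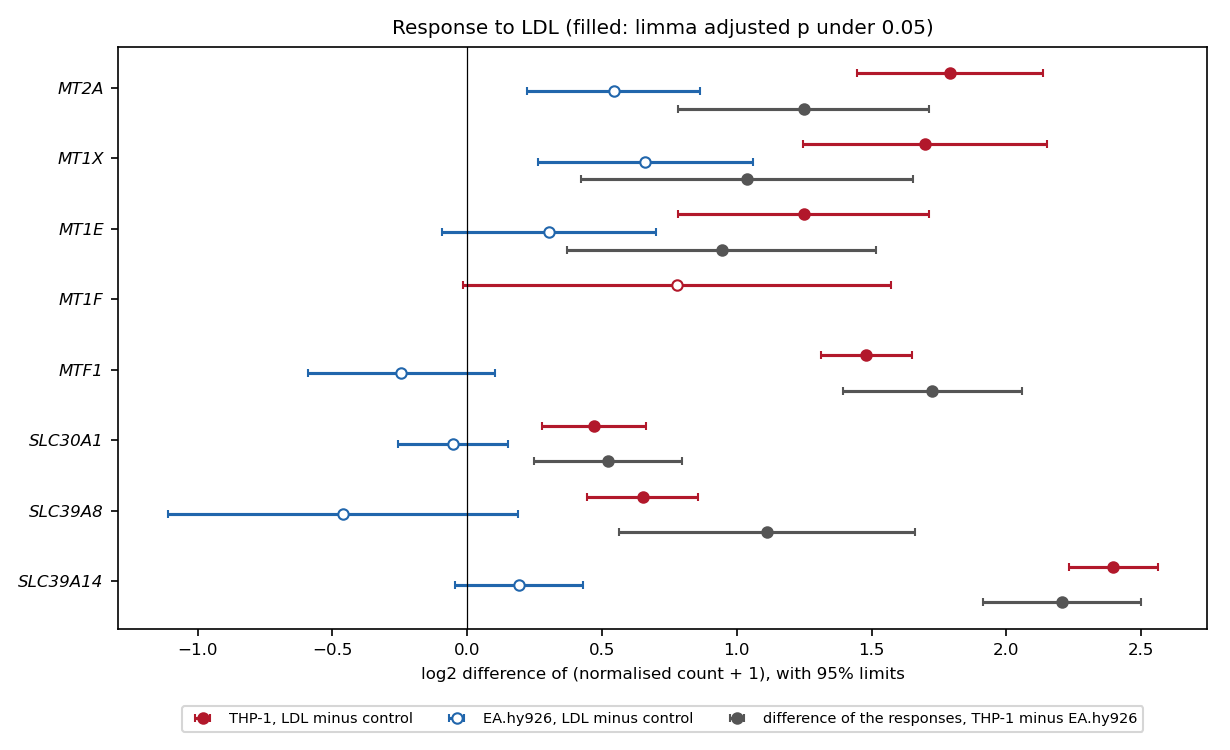
Log2 differences with 95% limits for 8 genes in THP-1 (LDL minus control, red), in EA.hy926 (LDL minus control, blue) and for the difference of both responses (THP-1 minus EA.hy926, grey). Filled points passed the limma threshold. In THP-1 7 points are filled, in EA.hy926 none are, and all 7 grey points are filled and above 0.

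In the libraries without LDL, THP-1 and EA.hy926 set these genes at different levels. MT2A, MT1X and MT1E were far lower in THP-1, whereas MTF1 and SLC39A8 were higher there and SLC30A1 did not pass the test. Of the 8 genes, 2 were called higher in THP-1 (MTF1 and SLC39A8) and 4 lower by limma. MT1F was also past the threshold, but it entered the test only through THP-1 and is listed at 0 in EA.hy926, so that nothing is read from that call. Of 16948 genes tested 82.0% were called in either direction, 45.1% higher and 37.0% lower. The control libraries of 7 of the 8 genes, MT1F with its zeros among them, did not overlap between the lines, compared with 84.7% of all genes tested.

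MT2A averaged 47.9 ± 3.81 normalised counts in THP-1 controls and 574 ± 125 in EA.hy926 controls (SD, n = 3 each), which makes EA.hy926 12.0-fold higher, and the log2 difference, THP-1 minus EA.hy926, was -3.53 ± 0.16 (limma, adjusted p = 7.4e-10). MT1X averaged 35.3 ± 9.82 in THP-1 controls and 167 ± 24.9 in EA.hy926 controls, a log2 difference of -2.24 (adjusted p = 9.0e-07). MT1E averaged 24.0 ± 2.73 in THP-1 controls and 88.3 ± 9.84 in EA.hy926 controls, a log2 difference of -1.83 (adjusted p = 2.3e-07). Even with LDL, THP-1 libraries held less of each of these metallothioneins than any EA.hy926 control library. MT1F went the other way, at 12.3 ± 3.17 normalised counts in THP-1 controls and listed at 0 in EA.hy926, so that no fold is given. Zeros that fill a whole group occur for many genes of this table, and no source used here says whether a filter produced them.

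SLC39A8 averaged 284 ± 8.30 normalised counts in THP-1 controls and 27.2 ± 4.61 in EA.hy926 controls, 10.5-fold higher in THP-1 with a log2 difference of 3.35 ± 0.17 (limma, adjusted p = 1.5e-09). MTF1 averaged 339 ± 18.6 in THP-1 controls and 161 ± 10.4 in EA.hy926 controls, a log2 difference of 1.07 (adjusted p = 5.4e-07). The metal sensor was thus higher in the line where MT2A, MT1X and MT1E were lower. SLC39A14 averaged 1499 ± 71.1 in THP-1 controls and 1919 ± 147 in EA.hy926 controls, a log2 difference of -0.35 (adjusted p = 0.0049). SLC30A1 averaged 1018 ± 51.3 in THP-1 controls and 939.8 ± 29.3 in EA.hy926 controls, a log2 difference of 0.12 with limits of -0.08 to 0.31 that did not pass (adjusted p = 0.24).

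To rank the genes within a group, means were divided by merged exon length in kilobases (GENCODE 29), which counts rare long isoforms and so understates genes that have them. For MT2A and MT1X the merged exons fill the whole gene, 1299 of 1299 and 1773 of 1773 bases, introns of the main transcript included. For SLC30A1 they fill 5474 of 7175 bases. The order of metallothioneins against the other genes is therefore uncertain. In THP-1 with LDL, SLC39A14 led at 1140.4 ± 115 normalised counts per kilobase, followed by SLC30A1 at 259 ± 34.9. MT2A at 131 ± 22.8 and MTF1 at 118 ± 7.83 came next and lay within their spread, as did SLC39A8 at 69.2 ± 8.24, MT1X at 64.7 ± 8.70 and MT1E at 55.9 ± 9.54. MT1F was last at 12.2 ± 6.14. By this divisor SLC39A14 and SLC30A1 stood above all 4 metallothioneins in these cells, with the limit just given.

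In THP-1 without LDL, SLC39A14 at 216 ± 10.2 and SLC30A1 at 186 ± 9.38 again led. SLC39A8 at 43.8 ± 1.28 and MTF1 at 42.2 ± 2.32 did not differ beyond their spread, and MT2A followed at 36.9 ± 2.93. MT1E at 22.9 ± 2.59 and MT1X at 19.9 ± 5.54 were within their spread, and MT1F was at 6.50 ± 1.68. By this divisor MT2A stood below SLC39A8 without LDL and above it with LDL.

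In EA.hy926 the order was led by a metallothionein. MT2A was at 633 ± 24.9 per kilobase with LDL and 442 ± 95.9 without, ahead of SLC39A14 at 316 ± 34.7 with LDL and 276 ± 21.2 without. SLC30A1 was at 165 ± 2.97 with LDL and 172 ± 5.35 without. MT1X was at 151 ± 32.2 with LDL and 94.4 ± 14.0 without, within its spread of SLC30A1 with LDL and of MT1E without. MT1E was at 104 ± 3.83 with LDL and 84.0 ± 9.36 without, and MTF1 at 17.0 ± 1.74 with LDL and 20.1 ± 1.30 without. SLC39A8 was last among the genes with reads, at 3.01 ± 0.632 with LDL and 4.19 ± 0.711 without.

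Other zinc transporters of THP-1 were examined as 2 families. Of 10 other exporters of the SLC30 family 6 had a row, all 6 were tested, 5 rose, 0 fell and SLC30A5 did not pass, with a median log2 difference of 0.58. Over all genes tested in THP-1, 35.5% rose and 29.0% fell, with a median of 0.08. SLC30A4, which loads zinc into endosomes and lysosomes, had 39.3, 222 and 168 normalised counts with LDL, against 3.48, 9.80 and 2.82 in controls. It was near the floor without LDL and spread widely with it. Its log2 difference was 4.33 ± 0.56 (limma, adjusted p = 1.8e-05). With a mean of 5.37 in controls, SLC30A4 entered the test only through the LDL libraries. Nothing is therefore read from that call, which is 1 of the 5. SLC30A3, a vesicular exporter best known from synaptic vesicles, averaged 279 ± 12.4 with LDL and 156 ± 9.47 in controls, a log2 difference of 0.84 (adjusted p = 7.5e-06). SLC30A7, an exporter into the Golgi, averaged 1815 ± 217 with LDL and 1197 ± 72.7 in controls, a log2 difference of 0.59 (adjusted p = 4.4e-05). SLC30A6, another Golgi exporter, averaged 545 ± 119 with LDL and 364 ± 10.0 in controls, a log2 difference of 0.56 (adjusted p = 0.0013).

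Of 12 other importers of the SLC39 family 9 had a row and were tested in THP-1, 2 rose, 4 fell and 3 did not pass, with a median log2 difference of -0.15. The 6 of 9 called is near the 64.5% called over all genes, so the count itself does not set the importers apart. SLC39A13, an intracellular zinc transporter known for its role in connective tissue, averaged 1679 ± 223 normalised counts with LDL and 531 ± 24.8 in controls, a log2 difference of 1.65 ± 0.092 (limma, adjusted p = 5.6e-09). SLC39A11, a Golgi zinc transporter, averaged 994 ± 45.6 with LDL and 556 ± 9.25 in controls, a log2 difference of 0.84 (adjusted p = 2.0e-07). SLC39A10, a plasma membrane importer, averaged 332 ± 43.5 with LDL and 710.2 ± 38.3 in controls, and fell by 1.10 on the log2 scale (adjusted p = 4.3e-07). SLC39A3 averaged 254 ± 15.3 with LDL and 338 ± 15.6 in controls, and fell by 0.41 (adjusted p = 0.0012). The importer SLC39A6 fell by 0.30 (adjusted p = 0.018), a call that was lost in 1 fit of all 12 libraries (adjusted p = 0.23), without LDL replicate 3 (adjusted p = 0.060) and without control replicate 2 (adjusted p = 0.11). With TMM, median of ratios or quantile scaling 5 importers fell, because SLC39A7 then passed (-0.25 with TMM, adjusted p = 0.020). The same held with edgeR (adjusted p = 0.022) and DESeq2 (adjusted p = 0.043). SLC39A7 also passed without LDL replicate 1 (adjusted p = 0.0077), and SLC39A9 passed as higher without LDL replicate 3 (adjusted p = 0.013).

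In EA.hy926, 0 of 5 other exporters and 0 of 9 other importers were called by limma, edgeR or DESeq2, and none had an unadjusted p under 0.05 in limma. SLC30A4 was at 48.2 ± 11.6 normalised counts with LDL and 60.0 ± 5.70 without, and SLC39A13 at 1367 ± 267 with LDL and 1399.9 ± 211 without. The difference between the lines passed for 2 of 5 exporters and 4 of 9 importers among these, near the 47.1% of all genes tested. It was 4.66 for SLC30A4 (limma, adjusted p = 2.0e-05) and 0.46 for SLC30A7 (adjusted p = 0.016, and 0.19 with quantile scaling). Among importers it was 1.69 for SLC39A13 (adjusted p = 1.1e-06), 0.86 for SLC39A11 (adjusted p = 2.1e-05), -0.84 for SLC39A10 (adjusted p = 0.0094) and -0.61 for SLC39A3 (adjusted p = 0.011). SLC30A4 passed the filter in THP-1 only through its LDL libraries, so nothing is read from its difference.

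**Figure D5:**
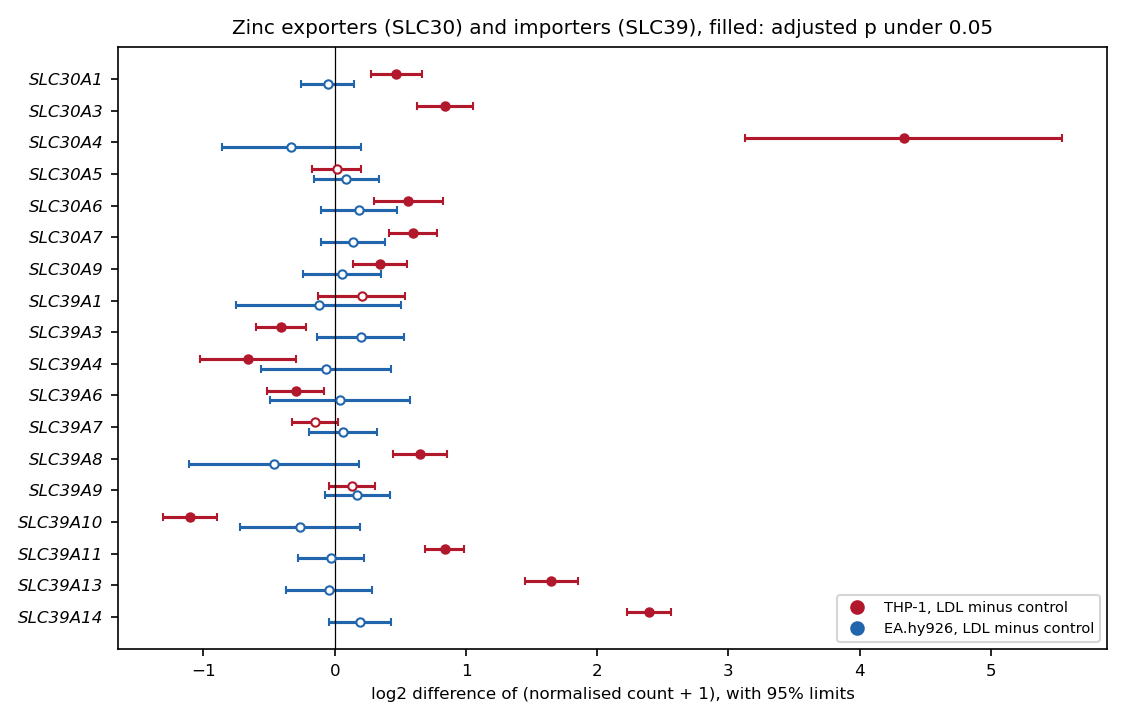
Log2 differences between LDL and control libraries, with 95% limits, for 7 zinc exporters (SLC30) and 11 zinc importers (SLC39) in THP-1 (red) and EA.hy926 (blue). Filled points passed the limma threshold. SLC30A4 and SLC39A14 lie farthest right in THP-1, and no blue point is filled. SLC30A4 entered the THP-1 test only through its LDL libraries.

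Further metallothioneins and zinc-binding proteins were sparse. Of 14 other metallothionein genes 1, MT1M, had a row, and it was at 0 in all 12 libraries, as was the pseudogene MT2P1. Of 5 zinc-binding S100 genes 1 had a row: S100A9, a calprotectin subunit that withholds zinc from microbes, averaged 11.5 ± 4.09 normalised counts in THP-1 controls and was listed at 0 in THP-1 with LDL and in EA.hy926. It entered the test only through the THP-1 controls, and it dropped below the filter without control replicate 2. No call or fold is therefore read from it.

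Genes of the response to heavy metals and thiol stress, many of them targets of the transcription factor NRF2 or of heat shock factors, were followed as a list. Of 11 tested in THP-1, 4 rose, 4 fell and 3 did not pass, with a median log2 difference of -0.10, counts near the 35.5% that rose and 29.0% that fell over all genes. HSPA1A, 1 of the 4 that fell, averaged 7.80 normalised counts with LDL and 18.6 in controls. It entered the test only through the control libraries, so nothing is read from its call. With a filter at a mean of 50, 4 of 10 tested rose and 3 fell. SLC7A11, the cystine importer that feeds glutathione synthesis, averaged 5044 ± 425 normalised counts with LDL and 332 ± 10.5 in controls, a log2 difference of 3.92 ± 0.071 (limma, adjusted p = 1.4e-13). TXNRD1, a thioredoxin reductase, averaged 3898 ± 144 with LDL and 1439.8 ± 19.4 in controls, a log2 difference of 1.44 (adjusted p = 2.5e-10). GCLM, a subunit of the first enzyme of glutathione synthesis, averaged 525 ± 35.2 with LDL and 183 ± 6.71 in controls, a log2 difference of 1.51 (adjusted p = 8.0e-09). NQO1, a quinone reductase, averaged 203 ± 22.9 with LDL and 411 ± 17.1 in controls, and fell by 1.02 (adjusted p = 1.4e-06). With TMM scaling 3 rose and 5 fell, since the rise of GCLC, by 0.23, was lost (0.13, adjusted p = 0.11) and BAG3 passed as lower (-0.29, adjusted p = 0.029). BAG3 also passed as lower with median of ratios scaling (adjusted p = 0.043) and with edgeR (adjusted p = 0.022). GCLC was also lost with median of ratios scaling, quantile scaling (0.02, adjusted p = 0.84), edgeR, DESeq2, no trend, 1 fit of all libraries and without control replicate 2 (adjusted p = 0.055), and the fall of HSPA1A was lost without control replicate 2 (adjusted p = 0.055) or 3 (adjusted p = 0.061).

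The same list in EA.hy926 had 3 genes that rose and none that fell among 12 tested, where 0.873% of all genes rose. HMOX1, the heme-degrading enzyme, averaged 2238 ± 115 normalised counts with LDL and 659.7 ± 3.33 in controls, a log2 difference of 1.76 ± 0.093 (limma, adjusted p = 1.3e-06). GCLM averaged 333 ± 20.8 with LDL and 187 ± 10.8 in controls, a log2 difference of 0.83 (adjusted p = 0.0020). NQO1 averaged 6399 ± 198 with LDL and 4548 ± 554 in controls, a log2 difference of 0.50 close to the threshold (adjusted p = 0.047). It did not pass with TMM (adjusted p = 0.065), median of ratios (0.065) or quantile scaling (0.091), or with edgeR (0.052). Nor did it with pseudocount 0.5 (0.0504), a filter at a mean of 50 (0.093), no trend (0.25) or a replicate block (0.28). It also failed without LDL replicate 1, 2 or 3 or control replicate 2 or 3 (adjusted p = 0.080 to 0.23). The count of 3 thus depends on the setting. SRXN1, which repairs oxidised peroxiredoxins, averaged 29.4 ± 12.1 normalised counts with LDL and 9.48 ± 1.98 in controls, on 7 to 26 reads per library. Its log2 difference of 1.46 did not pass (limma, adjusted p = 0.093) but passed without LDL replicate 3 (1.85, adjusted p = 0.011). It also passed in 1 limma fit of all 12 libraries (1.46, adjusted p = 0.0068). SRXN1 entered the test only through the LDL libraries, so nothing is read from either pass. TXNRD1 passed as higher in that fit of all 12 libraries too (0.33, limma, adjusted p = 0.018). In the fit of EA.hy926 alone TXNRD1 did not pass (limma, adjusted p = 0.37). In THP-1, HMOX1 averaged 372 ± 64.0 with LDL and 389.9 ± 34.3 in controls and did not pass (log2 difference -0.08, adjusted p = 0.58).

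Genes with the most similar profile over the 12 libraries were sought among 11254 genes, by the root mean square difference of centred log2 values, as a description. The nearest to SLC39A14 were IRF1 at 0.13, ETS2 at 0.14 and PLAUR at 0.15. The nearest to MTF1 were TRIM38 at 0.088, CYLD at 0.15 and DENND3 at 0.15. The profile of TRIM38 was close in level too, at 927 normalised counts in THP-1 with LDL, 332 in THP-1 controls, 132 in EA.hy926 with LDL and 154 in EA.hy926 controls.

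For the metallothioneins, TXNRD1 at 0.24, GDF15 at 0.31 and PLAU at 0.33 were nearest to MT2A. MIR22HG at 0.18, SQSTM1 at 0.21 and SNAI1 at 0.25 were nearest to MT1X, and PPP1R15A at 0.17, RBCK1 at 0.18 and TINF2 at 0.19 to MT1E. For MT1F the nearest were LOXL3 at 0.31, IKBKE at 0.35 and MR1 at 0.35, but genes with a group at 0 were left out of the search and MT1F itself is at 0 in EA.hy926, so these distances say little. SLC30A1 had AP5M1 at 0.075 and NCK1 at 0.082, and SLC39A8 had CLN3 at 0.19, CDK14 at 0.21 and FOXP1-IT1 at 0.23. These distances share the library depths and the large differences between the lines.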

How the data were processed

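Total RNA of 12 libraries was sequenced, 3 in each of 4 groups. Per the submitters' processing notes, FastQC, MultiQC, STAR, HTSeq, DESeq2 and the build GRCh38 were used; their versions, the annotation, the strand setting and filters are not stated in the sources used. The values deposited by the authors are a signal, namely read counts per gene divided by 1 size factor per library. All values (100%) were whole multiples of the value of 1 read within a tolerance of 0.001, so reads were recovered for the count tests. Of 20117 genes, 20104 matched a list of gene names by identifier and 1742 were at 0 in all libraries. Reads from stretches that metallothionein genes have in common, or of overlapping antisense genes, may have been lost or shared, which limits each single metallothionein value. Only the coding bases of these genes were compared.

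Groups were taken from the labels. The members and the gene lists were chosen with earlier results of these data known. Separate fits per line were made with limma 3.58.1 (R 4.3.3), two-sided, with an intensity trend, on log2 of the value plus 1, for genes that averaged 10 or more in a group; the 12 libraries were fitted together for the difference between the responses and for the control libraries. Adjustment followed Benjamini and Hochberg over all genes tested. With 3 against 3 libraries an exact permutation test cannot go below 0.1. The code was tested on simulated data. Named were all members, other metallothioneins, up to 4 genes per list with the smallest adjusted p, and 3 nearest profiles per member (genes averaging 50 or more in a group, with no group at 0), of which 1 is not reported here; genes named for a call that a setting changes, and the SLC30A5, TRIM38 level and marker values, were chosen after their values were seen. Alternatives were pseudocounts, filters, TMM, median of ratios and quantile scaling, edgeR 4.0.16, DESeq2 1.42.0, no trend, a replicate block, 1 fit of all libraries and leaving out each library. Differences among replicates exceeded sampling noise (chi-square over degrees of freedom, 1.85 to 18.5), so none was treated as a duplicate. Molecular identifiers are not mentioned in the labels. Depth of 4.32 to 11.0 M reads means that 1 read was worth up to 1.91 normalised counts, which limits SLC39A8 in EA.hy926 and MT1F.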

Additional observations from a re-analysis of the deposited data

Results flagged for a closer look

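A difference between the lines in their response to LDL, tested as an interaction with limma over 12 libraries and given as THP-1 minus EA.hy926 on the log2 scale, marked 7 of the genes followed here and 15 of the other genes named here. For the genes followed here it was 2.20 for SLC39A14, 1.72 for MTF1, 1.25 for MT2A, 1.11 for SLC39A8, 1.04 for MT1X, 0.94 for MT1E and 0.52 for SLC30A1.

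For zinc transporters it was 4.66 for SLC30A4, 0.46 for SLC30A7, 1.69 for SLC39A13, 0.86 for SLC39A11, -0.84 for SLC39A10 and -0.61 for SLC39A3. For genes of copper handling it was 2.60 for SLC31A2, 1.02 for SLC31A1, 1.72 for SCO2 and -1.06 for SOD1. For genes of the response to heavy metals it was 3.75 for SLC7A11, 1.10 for TXNRD1, 0.68 for GCLM, -1.52 for NQO1 and -1.84 for HMOX1. Among all genes tested this difference passed for 47.1%, so that such a mark is common in these data. SLC30A4 passed the filter in THP-1 only through its LDL libraries, so nothing is read from its mark. Groups of 3 libraries were too small for a search for single libraries that stand apart.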

How the results depend on the processing

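Over 611 values of the 8 genes under alternatives, 607 kept their direction and their side of the threshold, 4 newly passed, 0 were lost and 0 reversed. The 4 were MT1F in THP-1 without LDL replicate 2 (adjusted p = 0.012) or in 1 fit of all 12 libraries (0.033), and MT1X in EA.hy926 with DESeq2 (0.034) or without LDL replicate 3 (0.015). Of the 7 genes tested in EA.hy926, 0 were called in limma, 1 with DESeq2, and 0 to 1 when each library was left out. Genes called in EA.hy926 numbered 285, against 466 with no filter, 45 with a mean of at least 50, 473 in 1 fit of all libraries and 220 to 341 when each library was left out; the cause was not tested. Scaling moved the split of called genes in THP-1: 5743 rose and 4682 fell in the deposited scale, and 4636 rose and 5728 fell with quantile scaling, whose median over all genes was -0.08 in place of 0.08. In the control libraries that median was 0.18 and with quantile scaling -0.02. Replicate numbers did not pair the samples (correlations of deviations -0.14, -0.02 and 0.12 in THP-1, and -0.52, 0.07 and -0.43 in EA.hy926). With the replicate number as a block, 10377 genes were called in THP-1, 231 in EA.hy926, 5166 for the difference and 13502 between control libraries, and 7, 0, 7 and 7 of the genes followed here (MT1F, at 0 in EA.hy926, counted in the last). Low counts limit MT1F, MT1E and, in EA.hy926, SLC39A8.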

Other observations

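Copper is bound by the same metallothioneins, and copper handling genes were followed as a further list. In THP-1 with LDL, 5 of 15 tested rose, 3 fell and 7 did not pass, with a median log2 difference of 0.12, while 35.5% of all genes rose and 29.0% fell. STEAP1, of the same list, averaged 13.2 normalised counts with LDL and 3.69 in controls. It entered the test only through the LDL libraries, so nothing is read from STEAP1. With a filter at a mean of 50, which leaves STEAP1 out, 4 of 13 tested rose and 3 fell. SLC31A2, a partner of the copper importer in endosomes and lysosomes, averaged 792 ± 80.4 normalised counts with LDL and 122 ± 5.58 in controls (SD, n = 3 each), a log2 difference of 2.69 ± 0.096 (limma, adjusted p = 7.7e-11). SLC31A1, the copper importer of the plasma membrane, averaged 1415 ± 107 with LDL and 654 ± 13.8 in controls, a log2 difference of 1.11 (adjusted p = 2.3e-08). SCO2, a copper chaperone of cytochrome c oxidase, averaged 198 ± 59.0 with LDL and 53.7 ± 5.29 in controls, a log2 difference of 1.83 (adjusted p = 2.9e-06). SOD1, the copper and zinc superoxide dismutase, averaged 196 ± 23.5 with LDL and 388 ± 10.7 in controls, and fell by 0.99 (adjusted p = 2.3e-06). COX11, another chaperone of that oxidase, fell by 0.43 (adjusted p = 0.015), a call lost without control replicate 1 (adjusted p = 0.062) or 2 (adjusted p = 0.054), and COX17 passed as higher without LDL replicate 2 (0.44, adjusted p = 0.0498).

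In EA.hy926, 0 of 14 copper handling genes were called by limma, edgeR or DESeq2, and none had an unadjusted p under 0.05 in limma. SLC31A2 averaged 54.9 ± 7.25 normalised counts with LDL and 51.7 ± 6.62 in controls there, and SOD1 averaged 986 ± 70.7 with LDL and 946 ± 127 in controls.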
